A study of Mus musculus with 9 samples.

Results

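The blood-brain barrier genes Mfsd2a, Cldn5, Ocln, Tjp1, Abcb1a, Slco1c1, Slco1a4, Slc2a1, Plvap and Cav1 were followed in single-cell RNA-seq of ependymoma-bearing and control mouse brain. They are 10 of the 32285 mouse genes in the files, and were taken by symbol. Mfsd2a was chosen by its level over all cells, which was higher in every tumor than in every control, so its tumor and control values are given as a description with no test. Each gene was measured in endothelial barcodes, defined as droplets with UMIs (unique molecular identifiers) of 4 or more of the 6 markers Flt1, Pecam1, Ly6c1, Kdr, Cdh5 and Egfl7, and in the other cells.

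The libraries came from 5 EP ZFTA-RELA tumors (genotype NestinCreERT2;Fus1) and 4 control brains (NestinCreERT2;TdT) of mice aged 6 to 8 weeks. Each mouse gave 1 library of 10x Genomics 5′ gene expression. Fus1 is the label's name for the conditional ZFTA-RELA fusion allele, which is switched on by Cre in nestin-expressing radial glia and their progeny, and both groups carried the NestinCreERT2 driver. TdT stands in the genotype of the controls in place of Fus1. Tissue was dissociated with scalpels and enzymes and spun through Percoll. Cells were then stained with DAPI and an antibody to the erythroid antigen Ter119 and sorted, so the share of each cell type also reflects dissociation and the sort. Whether an antibody to the leukocyte antigen CD45 was part of the gate is not clear from the sources used here.

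Endothelial cells of the brain form a barrier from 3 kinds of parts. Tight junctions seal the cleft between neighbouring cells, transporters and efflux pumps select what crosses, and transport in vesicles is kept low. Mfsd2a, carried by brain endothelium, takes up lysophosphatidylcholine with docosahexaenoic acid and holds back vesicle transport through caveolae. Cldn5 (claudin-5) and Ocln (occludin) are tight junction proteins of the membrane, and Tjp1 (ZO-1) is their scaffold inside the cell. Slc2a1 is the glucose transporter GLUT1, Slco1c1 carries thyroxine, Slco1a4 carries organic anions, and Abcb1a is an efflux pump of the P-glycoprotein type. Cav1 is the coat protein of caveolae, and Plvap forms the diaphragms of fenestrae and vesicles, which mature barrier vessels lack.

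The 9 libraries kept 1577 to 5909 cells each, with 5902699 to 37669641 UMIs in all and a median of 2057 to 6525 UMIs per cell. Between 1 and 10 kept barcodes were shared by any pair of the 8 libraries that could be compared, at most 0.262% of the smaller library, and 0 of them were endothelial. The 113 endothelial barcodes of the controls held 54611 to 178336 UMIs per mouse, and the 712 of the tumors held 412739 to 1270780. All 10 further endothelial markers that the rule did not use, among them Tek, Tie1, Erg and Esam, were detected in the endothelial barcodes of each mouse. Their summed level was 2226 to 2967 CPM (UMIs of the gene per 1000000 UMIs of the set) in control and 2378 to 5034 CPM in tumor endothelial barcodes. In the other cells it was 16.2 to 89.9 CPM, so these barcodes were enriched in endothelial RNA in both groups.

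RNA of other cell types was also present in these barcodes, and differed between the groups. The 6 neuron markers summed to 2381 to 3827 CPM in control endothelial barcodes, where all 6 were detected, and to 166 to 985 CPM in tumor ones, where 5 or 6 were. Of the 113 control endothelial barcodes 80 also passed the neuron gate, as did 24 of the 712 tumor ones. The mural gate was passed by 37 control and 104 tumor ones, and the astrocyte gate by 14 and 90 (5.13% to 32.0% per tumor). In control replicates 1 to 4, 6, 2, 8 and 2 endothelial barcodes passed no other gate, against 56 to 139 in the tumors. The 6 mural markers summed to 2634 to 3376 CPM in controls and to 15.2 to 2937 CPM in tumors, with the lowest sum in tumor replicate 3, where 4 of the 6 were detected. Erythroid RNA reached 19466 CPM in controls and 61398 CPM in tumors, again in tumor replicate 3. The part of this RNA in the results below was not tested beyond the values given beside them. With a limit of 10% mitochondrial RNA in place of the main filter, controls held 5 to 11 endothelial barcodes each and tumors 83 to 270. The part of RNA quality in the results was not tested.

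Endothelial barcodes made up a larger share of the cells in tumors. They were 0.355%, 0.717%, 0.778% and 0.536% of the kept cells in control replicates 1 to 4. In tumor replicates 1 to 5 they were 5.20%, 5.34%, 9.89%, 2.89% and 3.35%. The groups did not overlap, with means of 0.597% ± 0.191 (SD, n = 4) and 5.34% ± 2.77 (SD, n = 5). The difference of 4.74 percentage points had p = 0.0159 in a two-sided exact permutation test, in which the smallest possible p is 0.00794. With barcodes kept by gene number alone, without the mitochondrial and doublet filters, the difference was 1.99 percentage points, with p = 0.0159 in the same exact test. Levels summed over whole samples therefore mix the number of endothelial cells with the RNA in each, and the values that follow are CPM within a set of barcodes.

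Over all kept cells Mfsd2a stood at 4.56, 4.88, 4.19 and 3.25 CPM in control replicates 1 to 4 and at 46.6, 41.6, 76.1, 37.5 and 55.9 CPM in tumor replicates 1 to 5. These are the values that chose it. Within endothelial barcodes it stood at 91.6, 56.1, 127 and 98.6 CPM in the controls and at 145, 148, 345, 286 and 297 CPM in the tumors. All 5 tumors were above all 4 controls here as well. The difference was 1.48 ± 0.34 (SE) on the log2 scale, 2.80-fold, in a fit over 6628 genes. Control values rest on 5, 10, 21 and 14 Mfsd2a UMIs and tumor values on 60 to 364. Scaling each mouse to its summed endothelial markers in place of all RNA gave 1.25 on the log2 scale.

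Among the other 9 members, the claudin and the glucose transporter were higher in tumor endothelial barcodes. Cldn5 stood at 1062, 1082, 1928 and 1437 CPM in the controls and at 4451, 3778, 4299, 4848 and 3928 CPM in the tumors. The lowest tumor was well above the highest control. The log2 difference was 1.73 ± 0.26 (SE), a 3.31-fold rise, with adjusted p = 0.00113 by the quasi-likelihood test of edgeR with Benjamini-Hochberg adjustment. Slc2a1 stood at 531, 437, 562 and 387 CPM in the controls and at 1536, 1709.9, 3027, 628 and 1139.6 CPM in the tumors. Its groups also did not overlap, but tumor replicate 4 was close to the controls and tumor replicate 3 far above the rest. Its log2 difference was 1.87 ± 0.40 (SE), a 3.66-fold rise (edgeR adjusted p = 0.00607). Both calls held when each mouse was left out in turn, with log2 differences of 1.62 to 2.01 for Cldn5 and 1.48 to 2.08 for Slc2a1. Scaled to the 16 endothelial markers, the differences were 1.51 for Cldn5 (edgeR adjusted p = 0.0370) and 1.41 for Slc2a1 (edgeR adjusted p = 0.0365).

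Of all 6628 genes tested in endothelial barcodes, 832 (12.6%) were higher in tumors and 800 (12.1%) lower. At an unadjusted p under 0.05 by edgeR, 2494 of the 6628 differed in either direction. Of the members other than Mfsd2a, 8 could be tested, of which 2 were higher and 0 lower, as also at an unadjusted p under 0.05, with DESeq2 and with limma voom. Their median log2 difference was -0.06, against 0.06 over all genes tested. Calls over all genes moved with the scaling: scaled to the endothelial markers, 175 genes were higher and 598 lower, and the median of all genes fell to -0.21.

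**Figure D1:**
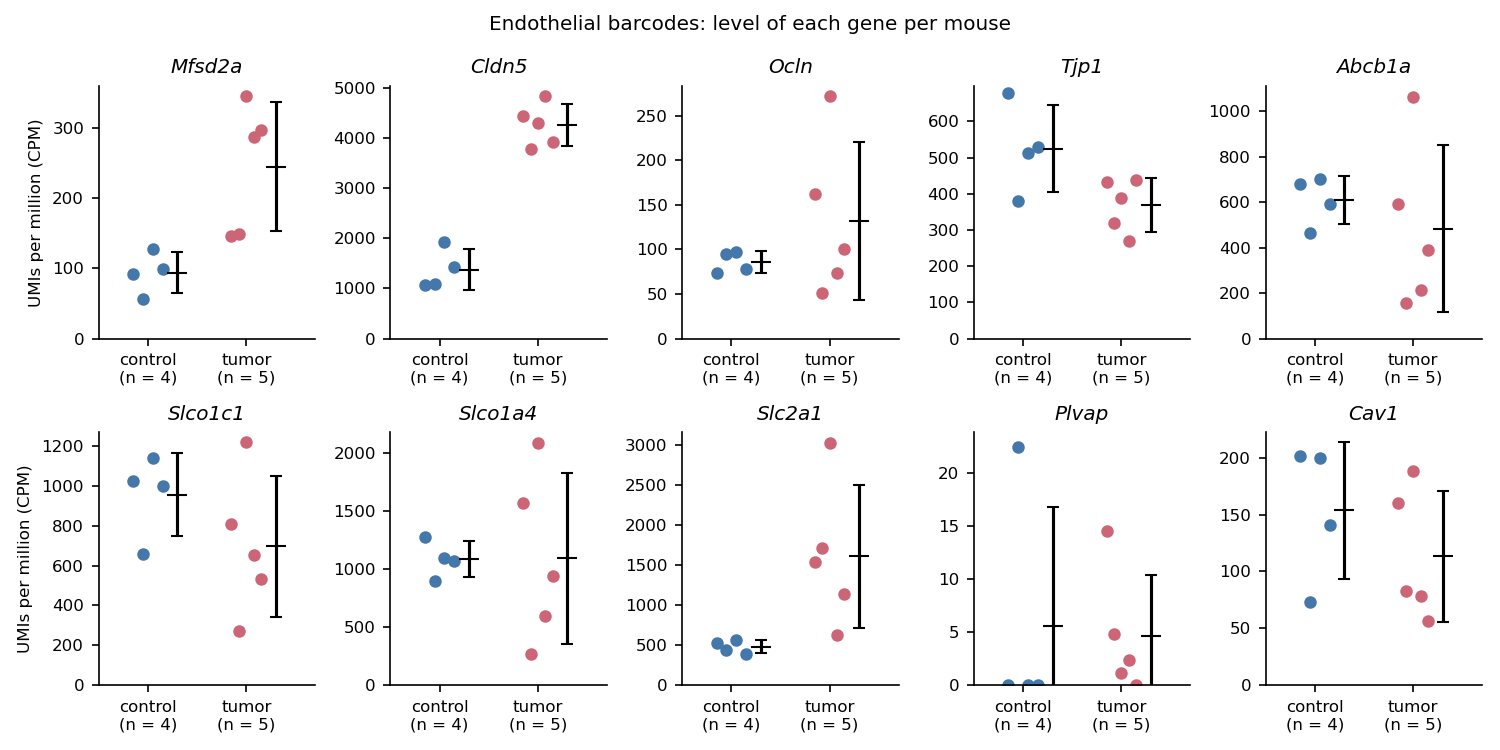
CPM of each of the 10 genes in endothelial barcodes, 1 point per mouse, for 4 control and 5 tumor mice, with the mean and SD of each group. The lowest tumor values of Mfsd2a, Cldn5 and Slc2a1 are 145, 3778 and 628 CPM, and the highest control values 127, 1928 and 562 CPM. Mfsd2a was chosen by its level over all cells of these mice.

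The promoter windows of these 3 genes are shown to set the sequence beside the levels. Each holds 250 bases before and 50 after the annotated start in RefSeq, build GRCm38.p6, on the strand of the gene. Capitals mark matches on either strand to CTTTGA (the TCF/LEF motif), ACGTG (the core of the hypoxia response element), GGGCGG (the GC box, CCGCCC on the other strand) and TATAAA (the TATA box). Mfsd2a lies on the minus strand at chr4:122946850-122961188 and its window at chr4:122961139-122961438. Cldn5 lies on the plus strand at chr16:18776847-18778262 and its window at chr16:18776597-18776896. Slc2a1 lies on the plus strand at chr4:119108711-119137983 and its window at chr4:119108495-119108794.
Mfsd2a: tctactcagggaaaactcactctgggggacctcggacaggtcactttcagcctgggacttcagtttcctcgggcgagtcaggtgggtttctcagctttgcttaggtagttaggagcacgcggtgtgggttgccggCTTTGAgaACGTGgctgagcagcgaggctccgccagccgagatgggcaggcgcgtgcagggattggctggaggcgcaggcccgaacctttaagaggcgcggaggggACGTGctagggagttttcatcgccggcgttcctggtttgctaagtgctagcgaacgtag
Cldn5: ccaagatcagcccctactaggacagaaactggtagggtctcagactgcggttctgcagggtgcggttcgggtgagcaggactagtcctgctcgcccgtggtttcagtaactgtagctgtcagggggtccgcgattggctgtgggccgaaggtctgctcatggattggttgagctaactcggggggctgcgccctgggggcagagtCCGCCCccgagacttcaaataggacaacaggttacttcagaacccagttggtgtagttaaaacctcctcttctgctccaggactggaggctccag
Slc2a1: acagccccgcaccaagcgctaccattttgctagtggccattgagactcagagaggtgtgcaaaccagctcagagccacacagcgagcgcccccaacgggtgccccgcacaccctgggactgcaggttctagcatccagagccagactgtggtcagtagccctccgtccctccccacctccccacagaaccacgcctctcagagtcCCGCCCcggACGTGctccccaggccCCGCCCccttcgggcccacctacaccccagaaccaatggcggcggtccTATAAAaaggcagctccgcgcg
The Mfsd2a window held CTTTGA at 115 bases before the start and ACGTG at 107 and 9 bases before it. ACGTG also stood in the Slc2a1 window, 36 bases before the start, and in those of Cav1, Slco1c1 and Tjp1, so that 5 of the 11 windows of members held it, against 19.6% of all 32851 windows. CTTTGA was found in 2 of the 11, those of Mfsd2a and Abcb1a, against 16% of all windows. The Cldn5 window held a GC box 45 bases before the start and none of the other letters searched. GC boxes stood in 35.7% of all windows, the ETS letters CCGGAA in 14.9% and the TATA box in 13.6%. These matches are a description of the sequence and no binding was measured.

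The other junction members did not pass the test in endothelial barcodes. Ocln stood at 73.2, 95.3, 96.7 and 77.5 CPM in the controls and at 162, 51.3, 272, 73.2 and 101 CPM in the tumors. Tumor replicates 1, 3 and 5 were above all controls and tumor replicates 2 and 4 below all of them, replicates 4 and 5 by little. The log2 difference was 0.67 ± 0.47 (SE), with a 95% interval from -0.26 to 1.60 (edgeR adjusted p = 0.324). Tjp1 stood at 678, 381, 514 and 528 CPM in the controls and at 434, 319.7, 389, 268 and 439 CPM in the tumors. Most tumors were below most controls, with overlap, and the log2 difference was -0.37 ± 0.22 (SE; edgeR adjusted p = 0.236).

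Transporters and the pump spread widely among tumors. Abcb1a stood at 678, 465, 701 and 592 CPM in the controls and at 594, 154, 1063, 212 and 392 CPM in the tumors. Slco1c1 stood at 1025, 656, 1142 and 1000.04 CPM in the controls, and at 807, 271, 1220.4, 651 and 530.2 CPM in the tumors. Slco1a4 stood at 1282, 897, 1099.9 and 1070.5 CPM in the controls and at 1570.0, 268, 2089, 598 and 937 CPM in the tumors. For each of these 3 genes, tumor replicate 3 was the highest of all 9 mice and tumor replicate 2 the lowest, while the controls lay close together. The log2 differences were -0.23 ± 0.49 for Abcb1a (adjusted p = 0.771), -0.36 ± 0.34 for Slco1c1 (adjusted p = 0.476) and 0.11 ± 0.47 for Slco1a4 (adjusted p = 0.896), as SE and by edgeR. Their 95% intervals ran from -1.19 to 0.72, from -1.03 to 0.31 and from -0.80 to 1.02, so that a 2-fold difference lay within the intervals of all 3 genes. Tumor replicate 3 was also the library with least mural and most erythroid RNA in its endothelial barcodes and with the highest sum of endothelial markers, 5034 CPM. Without it the Slco1a4 difference turned to -0.29 and the Abcb1a difference to -0.78, neither of which passed the test. Abcb1a and Slco1a4 have close paralogs (Abcb1b and the other Slco1a genes), so reads shared with those could be split or lost in counting.

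The members of vesicles did not pass the test in endothelial barcodes. Cav1 stood at 201, 72.9, 199 and 141 CPM in the controls and at 160, 82.3, 189, 78.7 and 56.4 CPM in the tumors, with a log2 difference of -0.29 ± 0.41 (SE; edgeR adjusted p = 0.636). Plvap was nearly absent. It gave 4 UMIs in control replicate 2 and 0 in the other 3 controls, which allows up to 54.9, 18.1 and 21.1 CPM in control replicates 1, 3 and 4 (3 counts of the total, counting error only). The tumors gave 6, 5, 1, 3 and 0 UMIs, at most 14.5 CPM, and Plvap was below the count filter, so 9 of the 10 members were tested and Plvap was not. At most 4 endothelial barcodes of any mouse held a Plvap UMI.

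Lists of related genes were read from the same fit. Of 19 other brain endothelial transporters and receptors tested, 4 were higher in tumors and 0 lower, with a median log2 difference of 0.32. The fourth, the receptor Lrp8, reached the count filter's minimum in 3 of the 4 controls, and its difference of 1.97 ± 0.32 (SE) is a description. Of the 18 that reached the minimum in all controls 3 were higher, beside the 12.6% of all genes. These 3 were Slc16a1, the monocarboxylate transporter MCT1 (1.94 ± 0.29 SE, mean 129 CPM in controls and 480 CPM in tumors), Slc38a5, which carries glutamine (1.54 ± 0.49), and Slc3a2, the heavy chain of the large amino acid transporter (1.42 ± 0.33). Their edgeR adjusted p were 0.00109, 0.0384 and 0.00940. At an unadjusted p under 0.05 edgeR had 6 higher and 2 lower, beside 2494 of all 6628 genes in either direction. With DESeq2 and with limma voom 1 was called lower. Slc2a1 was called higher too and Abcb1a, Slco1c1 and Slco1a4 were not, but these transporters were not tested against each other. Of 9 other junction proteins, 7 reached the count filter's minimum in all controls. Of these, Esam (1.81 ± 0.25, edgeR adjusted p = 0.000799) was higher and the polarity protein Pard3 lower (-1.03 ± 0.33, edgeR adjusted p = 0.0356). Esam is also 1 of the 10 further endothelial markers. F11r, which encodes JAM-A, reached the minimum in 3 of the 4 controls, and its difference of 1.21 ± 0.41 is a description. With limma voom 1 of the 9 was higher and 1 lower. The median of the 9 was 0.44.

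The list of WNT and beta-catenin genes, a pathway known to maintain the barrier programme of brain vessels, was read as well. Of 20 genes tested, the co-receptor Lrp6 was lower (-1.12 ± 0.26 SE, edgeR adjusted p = 0.00916). The target Axin2 reached the count filter's minimum in 3 of the 5 tumors and passed the filter through the controls. Its difference of -1.16 ± 0.40 is a description. With Axin2, edgeR called 2 of the 20 lower, a share near the 12.1% of all genes that were lower, and the median was 0.08. At an unadjusted p under 0.05 edgeR had 4 higher and 4 lower, near the share of all genes (2494 of 6628 in either direction). Tspan12, a part of the norrin receptor, did not pass, at 1.07 ± 0.38 (edgeR adjusted p = 0.0540). Of 8 genes of caveolae and vesicles, with a median of 0.82, 5 reached the count filter's minimum in all controls. Of these 1 was higher, the caveolar coat protein Cavin3 (1.86 ± 0.33, edgeR adjusted p = 0.00223). Ehd4 reached the minimum in 3 of the 4 controls, and its difference of 1.25 ± 0.35 is a description. Dnm2 (0.78) and Ehd2 (0.75) did not pass. None of the 8 was lower by edgeR, also at an unadjusted p under 0.05, or by DESeq2 or limma voom.

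Genes of growing vessels were read in endothelial barcodes for the 5 angiogenic and tip cell genes that reached the count filter's minimum of 24.2 CPM in all 4 controls. Of these, Col4a1, Col4a2, Vwa1 and Lama4 were higher in tumors and Unc5b did not pass (0.28, edgeR adjusted p = 0.579). Col4a2, a chain of the basement membrane collagen, was at 84.1 to 151 CPM in controls and at 555 to 1836 CPM in tumors (3.28 ± 0.38, edgeR adjusted p = 0.000448), and its partner Col4a1 rose by 3.27 ± 0.44 (edgeR adjusted p = 0.000811). The other 9 genes tested, of 17 in the list, did not reach that minimum in all controls and passed the filter through the tumors, so that a difference was partly set by the filter and their values are a description. Among them the Tie2 ligand Angpt2 was at 0 to 14.1 CPM in controls and at 151 to 491 CPM in tumors, and the Notch ligand Dll4 at 0 to 21.1 and 58.1 to 102 CPM. Over all 14 tested, edgeR and DESeq2 called 13 higher and limma voom 6, and 0 were lower with any of them or at an unadjusted p under 0.05. Of the 13 called by edgeR, 9 were genes that passed the filter through the tumors, so these totals are a description as well.

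Lists of vessel segments were read in the same way, and their counts were not tested against each other. Of 11 venous genes tested, 5 reached the minimum in all controls. Of those, Tmsb10 (3.28 ± 0.39 SE, edgeR adjusted p = 0.000448), Vwf and Slc38a5 were higher and Nr2f2 lower. The other 6 did not reach it in all controls, and their values are a description: the adhesion molecule Icam1 differed by 2.91 ± 0.45, Prcp by 2.06 ± 0.57 and the interleukin receptor Il1r1 by 1.97 ± 0.45. Over all 11, edgeR called 7 higher and limma voom 3. Of the 7, 4 were among the 6 that did not reach the minimum in all controls, so these totals are a description as well. Of 3 tested genes of leukocyte adhesion, Icam2 reached the minimum in all controls and did not pass (0.86, edgeR adjusted p = 0.0572). Of 7 arterial genes, Mgp (2.16 ± 0.59, edgeR adjusted p = 0.0232) and Clu (1.95 ± 0.59, edgeR adjusted p = 0.0348) were higher. Groups overlapped for both: Mgp was at 91.55 to 353.3 CPM in controls and 259.2 to 1299 CPM in tumors, and Clu at 205.5 to 256.4 and 175.9 to 2118 CPM. Of 12 capillary genes, Slc16a1 and Rgcc (1.64 ± 0.35, edgeR adjusted p = 0.00600) were higher and 0 lower, a share of the list near the 12.6% of all genes. In each of these lists 1 gene was lower by edgeR at an unadjusted p under 0.05, and with limma voom 1 arterial gene was called higher and 1 lower. The medians were 0.28 for the arterial and 0.16 for the capillary genes.

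Among all genes tested, those that rose with the smallest p were Cdkn1a, an inhibitor of cyclin-dependent kinases (3.66 ± 0.36 SE), the cyclin Ccnd1 (2.76 ± 0.29), Igfbp7 (2.65 ± 0.30) and the kinase Pim3 (2.40 ± 0.28), together with Col4a2. Those that fell with the smallest p were Nme7 (-4.58 ± 0.30), Ppp3ca (-2.50 ± 0.26), Rab3a (-2.37 ± 0.26), Gprasp1 (-2.72 ± 0.32) and Elmod1 (-4.30 ± 0.51). Rab3a, a vesicle protein of synapses, and Ppp3ca, a calcineurin subunit abundant in neurons, fell beside the neuron markers described above. Ccnd1, Igfbp7, Col4a2, Ppp3ca and Rab3a had an edgeR adjusted p of at most 0.000448. Nme7 and Elmod1 reached at most 19.4 and 9.14 CPM in tumors. That is under the count filter's minimum of 24.2 CPM, so they passed the filter through the controls. Gprasp1 was under it in its lowest tumor (11.8 CPM), and Cdkn1a and Pim3 in their lowest control (21.1 and 18.3 CPM). The differences of Nme7, Elmod1, Gprasp1, Cdkn1a and Pim3 are therefore a description.

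The share of each gene's UMIs that lay in endothelial barcodes was smaller for Mfsd2a than for 6 of the other members in every tumor. In tumors 21.8%, 21.8%, 56.3%, 25.7% and 21.7% of Mfsd2a UMIs were endothelial in replicates 1 to 5, a mean of 29.5% ± 15.1 (SD, n = 5). For Cldn5 the share was 81.3% to 92.2%, for Ocln 71.6% to 94.9%, for Abcb1a 76.3% to 95.1%, for Slco1c1 70.2% to 85.3%, for Slco1a4 76.1% to 92.2% and for Slc2a1 55.4% to 89.5%. Tjp1, which is made in many cell types, had 16.04% to 42.6%, and Cav1 18.6% to 64.7%. The Mfsd2a shares lay within the range of those of Cav1. In controls, where under 1% of cells were endothelial, the shares were 8.47% to 31.8% for Mfsd2a, which overlapped those of tumors, and 53.7% to 78.2% for Cldn5 and 3.48% to 6.12% for Tjp1, below those of every tumor.

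**Figure D2:**
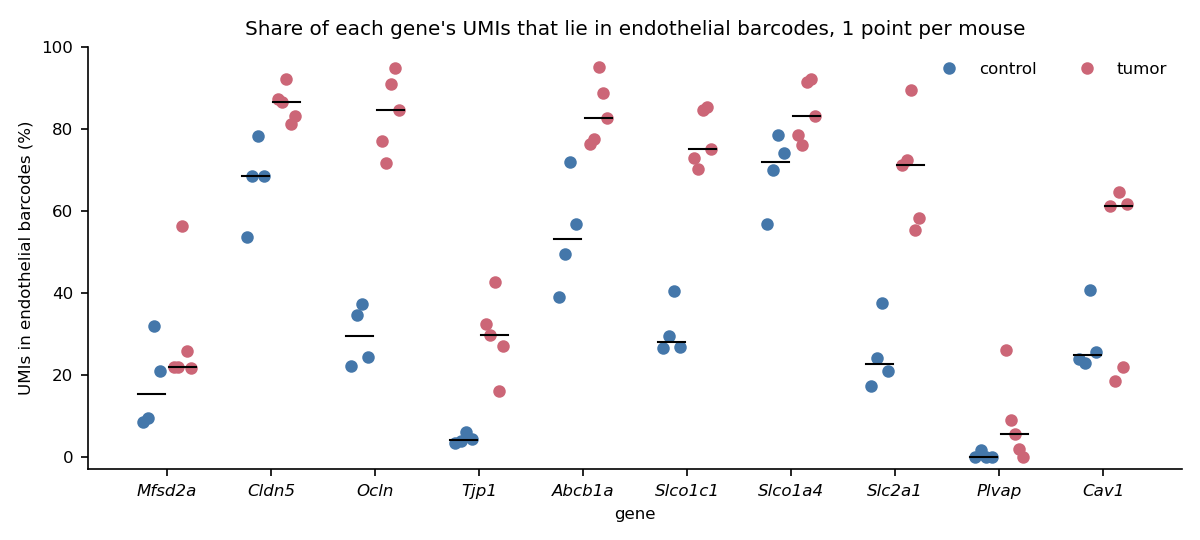
Percent of each gene's UMIs that lie in endothelial barcodes, 1 point per mouse, for controls and tumors, with the median of each group as a line. Mfsd2a lies at 21.7% to 56.3% in tumors and Cldn5 at 81.3% to 92.2%.

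Outside the endothelial barcodes Mfsd2a was also higher in tumors, given again as a description. It stood at 4.19, 4.45, 2.89 and 2.58 CPM in the other cells of the controls and at 39.2, 34.6, 38.0, 28.8 and 45.7 CPM in those of the tumors. The lowest tumor was above the highest control, and the log2 difference was 3.65 ± 0.24 (SE). In a fit over 17476 genes, 5469 (31.3%) were higher and 4908 (28.1%) lower. The make-up of these cells differed as well, since the neuron markers made up 19396 to 22262 CPM of the other control cells and 397 to 8409 CPM of the other tumor cells. Against that background 4 of the 9 other members were higher and 1 was lower, with a median log2 difference of 0.77 against 0.04 over all genes tested.

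Cldn5 was higher in the other cells of tumors, at 3.88 to 5.71 CPM in controls and 33.6 to 51.8 CPM in tumors (log2 difference 3.44 ± 0.19 SE, edgeR adjusted p = 5.15e-05). Slc2a1 was at 9.94 to 11.5 CPM in controls and 17.7 to 50.3 CPM in tumors (2.08 ± 0.25, edgeR adjusted p = 0.000313). Slco1a4 (2.28 ± 0.68, edgeR adjusted p = 0.0162) and Cav1 (2.39 ± 0.66, edgeR adjusted p = 0.0118) passed as well, although in both the groups overlapped and neither passed with limma voom (1.28 and 1.93; adjusted p = 0.182 and 0.0582). Slco1a4 was at 2.58 to 4.11 CPM in controls and at 32.4, 5.50, 28.0, 1.76 and 8.04 CPM in tumors, with tumor replicate 4 under all controls. Cav1 was at 2.06 to 3.08 CPM in controls and at 7.65, 23.6, 14.7, 9.75 and 1.49 CPM in tumors. In cells with 0 of the 6 endothelial markers the Slco1a4 difference was 1.04 and no longer passed (edgeR adjusted p = 0.116), nor did it with the replicate number as a block over replicates 1 to 4 (1.86, edgeR adjusted p = 0.0552).

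Plvap was the member that was lower in the other cells of tumors, at 9.93, 11.5, 10.5 and 11.3 CPM in controls and at 3.10, 3.16, 2.83, 4.15 and 1.49 CPM in tumors (log2 difference -1.57 ± 0.33 SE, edgeR adjusted p = 0.00302). All tumors were below all controls. Its control UMIs lay almost wholly outside endothelial barcodes, 768 of 772, and the neuron-marker cells of the controls held 10.1 to 11.9 CPM. Those cells were 77.6% of the kept control barcodes and held 80.3% of the Plvap UMIs of controls. In tumors neuron-marker cells were 7.43% of the kept barcodes and held 6.08 to 8.44 CPM in the 4 tumors with 10 or more. Astrocyte-marker barcodes of tumors held 1.39 to 7.27 CPM, neural progenitor ones 0 to 2.90 CPM and microglia or macrophages 0 to 2.63 CPM. In the smallest deposited barcodes, described below, Plvap stood at 13.5, 13.2, 10.8 and 10.9 CPM in control replicates 1 to 4. There it stood at 6.27, 5.72, 8.92, 2.91 and 3.32 CPM in tumor replicates 1 to 5. The parts of cell make-up and of RNA from outside the cells in the Plvap difference were not tested. Tjp1 did not pass in the other cells (-0.24 ± 0.13, edgeR adjusted p = 0.136). Its 49.0 to 74.4 CPM in tumors nonetheless lay below the 79.3 to 83.7 CPM of controls. Ocln (0.40 ± 0.69, edgeR adjusted p = 0.634), Abcb1a (0.77 ± 0.57, edgeR adjusted p = 0.267) and Slco1c1 (0.01 ± 0.47, edgeR adjusted p = 0.985) did not pass either.

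**Figure D3:**
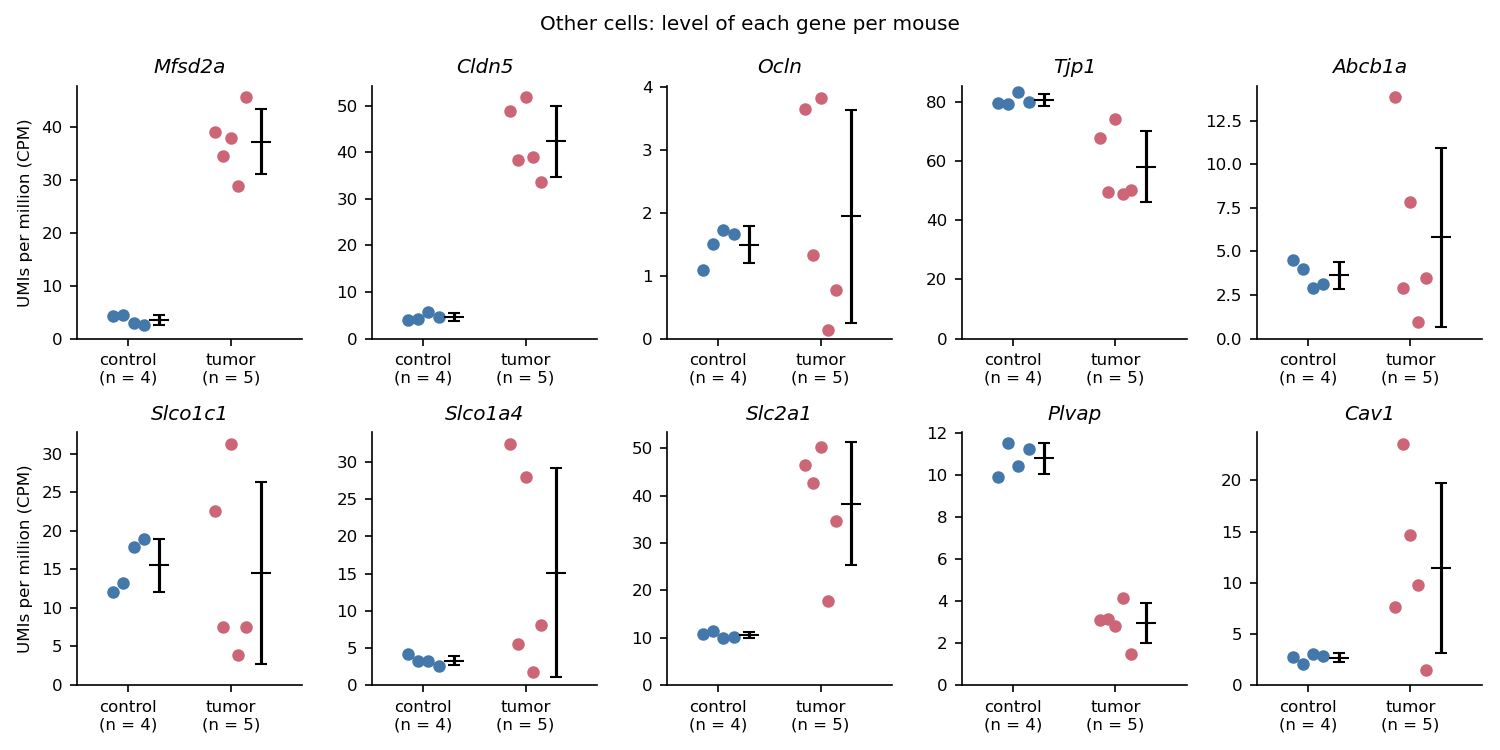
CPM of each of the 10 genes in the cells outside the endothelial rule, 1 point per mouse, with the mean and SD of each group of 4 controls and 5 tumors. Mfsd2a and Cldn5 are higher in every tumor (at least 28.8 and 33.6 CPM), and Plvap is lower in every tumor (at most 4.15 CPM).

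Free RNA in the droplets can place endothelial UMIs in other cells, so the members were also read in the 3000 smallest deposited barcodes of each library. These held 1682449 to 3853553 UMIs per library, and the smallest deposited barcode of a library 468 to 517 UMIs. They may therefore include small or damaged cells and are no pure sample of free RNA. There Cldn5 stood at 4.99 to 14.3 CPM in controls and at 66.7, 175, 207, 283 and 101 CPM in tumors, above its level in the other tumor cells in each mouse. Mfsd2a stood at 2.85 to 6.31 CPM in controls and at 22.2, 40.5, 44.0, 40.1 and 63.6 CPM in tumors. That was above its level in the other tumor cells in 4 of 5 tumors and below it in tumor replicate 1. The part of free RNA in the differences above was not tested. Cell classes held unlike levels, which the next values show.

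Classes were read from barcodes with 4 or more of 6 markers of 1 class and no second class. In tumors the barcodes with markers of oligodendrocyte precursors (Pdgfra, Cspg4, Olig1, Olig2, Lhfpl3, C1ql1) held Mfsd2a at 285, 196, 337.5, 84.0 and 186 CPM in replicates 1 to 5, over 17, 43, 29, 287 and 37 barcodes. In replicates 1 and 2 these levels were above those of the endothelial barcodes of the same mouse, in replicate 3 nearly equal to them, and in replicates 4 and 5 below them. Cldn5 was at 0 to 33.5 CPM in the same barcodes, so that these barcodes were rich in Mfsd2a and not in the claudin. After each barcode was thinned to 1000 UMIs, 7.67% to 27.6% of them held an Mfsd2a UMI and 0% to 4.65% a Cldn5 UMI. Among microglia or macrophages, taken as cells that should lack both genes, the thinned shares were 0.195% to 0.948% for Mfsd2a and 1.90% to 4.22% for Cldn5. The shares before thinning were 31.0% to 51.2% for Mfsd2a in precursor-marker barcodes, with median depths of 3198 to 4736 UMIs, and 1.57% to 4.52% in microglia or macrophages, with median depths of 2358 to 5913.5 UMIs. The Mfsd2a share in precursor-marker barcodes was thus above that background in each tumor, while the Cldn5 share overlapped it.

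Barcodes with astrocyte markers came next in most tumors. Mfsd2a stood there at 96.4, 96.1, 122, 32.9 and 147 CPM in tumor replicates 1 to 5, and at 14.7, 41.2 and 73.9 CPM in control replicates 1 to 3, where 1, 6 and 7 UMIs were counted. Control replicate 4 had 3 such barcodes and 0 Mfsd2a UMIs. Oligodendrocyte-marker barcodes of tumors held 25.5 to 152 CPM, neural progenitor ones 0 to 44.1 CPM, and microglia or macrophages 2.64 to 10.5 CPM. In controls the 139 barcodes of microglia or macrophages held 0 Mfsd2a UMIs, and neuron-marker barcodes 2.01 to 4.06 CPM. Control precursor-marker barcodes numbered 4 and held 0 Mfsd2a UMIs, which is too few to compare with tumors. Neighbours in this order overlapped between mice: endothelial with precursor-marker barcodes, those with astrocyte-marker ones, those with oligodendrocyte-marker ones, and the last with neural progenitor ones.

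**Figure D4:**
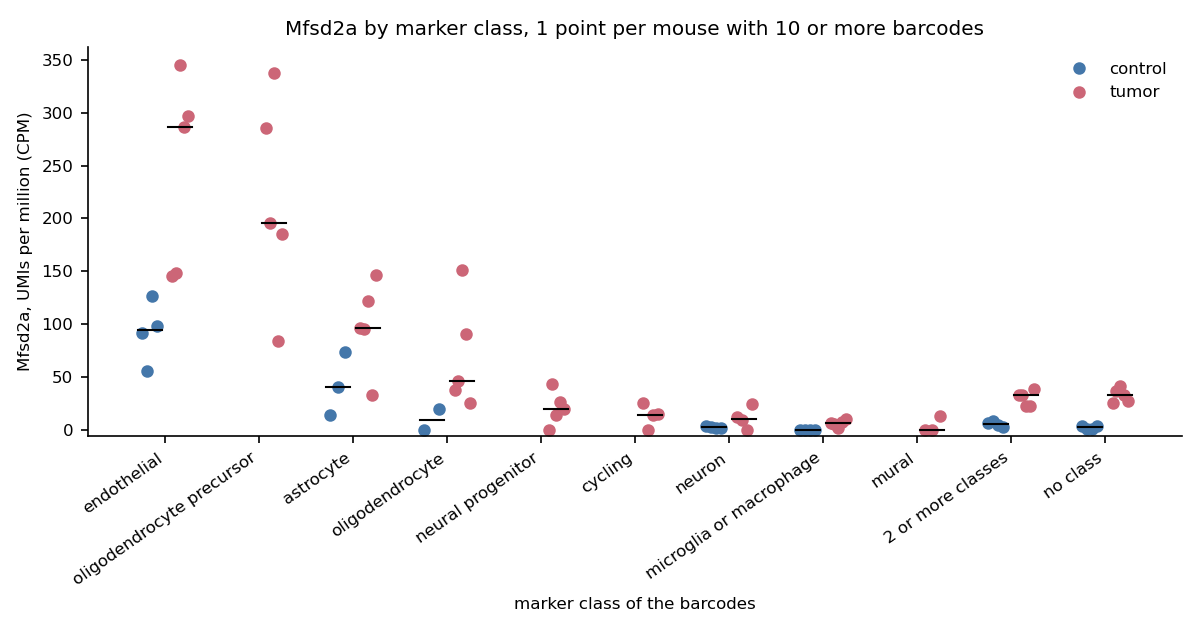
Mfsd2a level (CPM) by cell class in each control and tumor mouse, 1 point per mouse with 10 or more barcodes of the class, with the median of each group as a line. In tumors the endothelial (145 to 345 CPM) and oligodendrocyte precursor (84.0 to 337.5 CPM) classes lie above microglia or macrophages (2.64 to 10.5 CPM).

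Of the Mfsd2a UMIs of a tumor, 21.7% to 56.3% lay in endothelial barcodes, with a mean of 29.5% in which each mouse counts alike. Astrocyte-marker barcodes held 9.56% to 39.3% (mean 21.6%), barcodes of 2 or more classes 4.21% to 21.4% (mean 14.2%), barcodes of no class 6.90% to 18.8% (mean 13.7%), precursor-marker barcodes 3.34% to 9.96% (mean 6.85%) and neural progenitor ones 0% to 15.3% (mean 6.57%). These ranges overlapped, apart from the endothelial range, which lay above those of the other classes named except astrocyte-marker barcodes. Precursor-marker barcodes made up 2.62% of the kept tumor barcodes. With a second class allowed, precursor-marker barcodes of tumors held 56.2 to 288 CPM and astrocyte-marker ones 27.7 to 97.9 CPM, against 5.17 to 13.3 CPM in astrocyte-marker barcodes of controls. These cells are named by their markers and may include tumor cells.

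Other members had their own patterns outside the endothelium. Cav1 was at 107, 90.8, 149, 46.8 and 24.8 CPM in precursor-marker barcodes of tumors, overlapping its endothelial level. Slco1c1, which astrocytes are known to carry as well, stood at 132, 68.7 and 169 CPM in the astrocyte-marker barcodes of control replicates 1 to 3 and at 3.98 to 178 CPM in those of tumors. Ocln gave 0 UMIs in precursor-marker barcodes of each tumor.

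Levels over 14 points, each a cell class in 1 of the groups averaged over mice, were compared with those of Mfsd2a for 15632 genes. The 5 genes most like Mfsd2a by Pearson's r of log2(CPM + 1) were Tmem238 (r = 0.891), Mpzl1 (0.887), Klhl5 (0.833), Sash1 (0.792) and Dolk (0.792). Among the members the order was Cav1 (0.655), Slc2a1 (0.589), Cldn5 (0.550), Slco1a4 (0.532), Abcb1a (0.508), Ocln (0.382), Slco1c1 (0.318), Tjp1 (0.191) and Plvap (-0.288). The points share libraries and free RNA, so these values are a description. Cav1, the member most like Mfsd2a, ranked 80 among the 15632 genes.

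Within tumor endothelium, barcodes with an Mfsd2a UMI were compared with those without one in the same mouse. They numbered 38, 56, 94, 113 and 71 with and 85, 107, 62, 35 and 51 without in tumor replicates 1 to 5. Of 5027 genes 27 (0.537%) were higher in barcodes with Mfsd2a and 26 (0.517%) lower, by edgeR with the mouse as a block, counting Mfsd2a itself, which made the split. Of the 8 other members tested, 2 were higher and 0 lower, and 6 were higher and 0 lower at an unadjusted p under 0.05. Among all 5027 genes, Tjp1 with an unadjusted p of 0.0483 by edgeR ranked 558 by p. Slco1c1 stood at 1171, 367, 1283, 726 and 572 CPM with Mfsd2a and at 604, 216, 1017, 342 and 436 CPM without it. It was higher in 5 of 5 tumors, by 0.69 ± 0.11 (SE) on the log2 scale (edgeR adjusted p = 0.00481). Cldn5 was higher in 5 of 5 tumors, by 0.34 ± 0.08 (edgeR adjusted p = 0.0391), a call that ended in 7 of 8 alternatives, each of the 5 tumors left out included. Slco1a4 (0.37, edgeR adjusted p = 0.123) and Slc2a1 (0.27, edgeR adjusted p = 0.148) did not pass but were higher in 5 of 5 tumors, and Abcb1a (0.11) and Cav1 (0.12) differed least.

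Depth differs between these barcodes, since a deeper barcode more often holds an Mfsd2a UMI. The median was 3241, 5087.5, 5159, 7241 and 4811 UMIs with Mfsd2a and 2301, 4220, 1981.5, 5627 and 3112 without. Split again after thinning to 1000 UMIs, Slco1c1 differed by 0.56 and did not pass (edgeR adjusted p = 0.0650), while Cldn5 differed by 0.49 (edgeR adjusted p = 0.0155). Direction held for both, and the calls over all genes fell to 10 higher and 4 lower.

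Some of the genes higher beside Mfsd2a were transporters and capillary genes, while most were in none of the lists. Among the latter were the histone genes Hist1h2ap (1.21) and Hist1h2ae (1.46), Pclaf (1.13) and Ube2c (1.22). The calls of this paragraph and the next are from the split before thinning, in which depth differed. Of 18 other transporters and receptors tested, 5 were higher and 0 lower: Lrp8 (0.97 ± 0.16 SE), the cationic amino acid transporter Slc7a1 (0.85 ± 0.15), the iron exporter Slc40a1 (0.85 ± 0.16), the light chain Slc7a5 (0.54 ± 0.12) and its partner Slc3a2 (0.41 ± 0.10), with edgeR adjusted p of 0.00481, 0.00876, 0.00999, 0.0285 and 0.0415. Of 12 capillary genes, Car4 (0.82 ± 0.12), Itm2a (0.58 ± 0.10) and Slc9a3r2 (0.63 ± 0.15) were higher, with edgeR adjusted p of 0.00108, 0.00676 and 0.0415. The medians of these lists were 0.47 and 0.59, against -0.0011 over all genes. At an unadjusted p under 0.05, 11 of the 18 and 9 of the 12 were higher and 0 lower. Of 19 WNT genes, Apcdd1, an inhibitor of WNT signals, was higher (0.64 ± 0.14, edgeR adjusted p = 0.0314).

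Of the 26 genes that were lower, 4 were in the arterial, venous and angiogenic lists and the rest in none. Of 4 arterial genes tested, Clu (-0.77 ± 0.09 SE, edgeR adjusted p = 0.000168) and Mgp (-0.57 ± 0.13, edgeR adjusted p = 0.0411) were lower, and of 11 venous genes, the clotting factor Vwf (-0.59 ± 0.11, edgeR adjusted p = 0.00876). None of either list was higher, but at an unadjusted p under 0.05 edgeR had 1 arterial and 3 venous genes higher. Of 15 angiogenic genes the growth factor Pgf was lower (-1.74 ± 0.22, edgeR adjusted p = 0.000279) and 0 were higher, or 2 at an unadjusted p under 0.05, with a median of -0.16. The 9 other junction proteins, 8 caveolar genes and 3 genes of leukocyte adhesion had 0 calls by edgeR at an adjusted p under 0.05, and 1, 0 and 1 higher and 0, 0 and 1 lower at an unadjusted p. Of the 26 lower genes, 6 are encoded by mitochondria, at -0.35 to -0.44, and Celf4 (-1.60) and Mbp (-0.77), of neurons and myelin, were lower too. The part of RNA from other cells in the lower genes, Clu and Mgp included, was not tested.

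**Figure D5:**
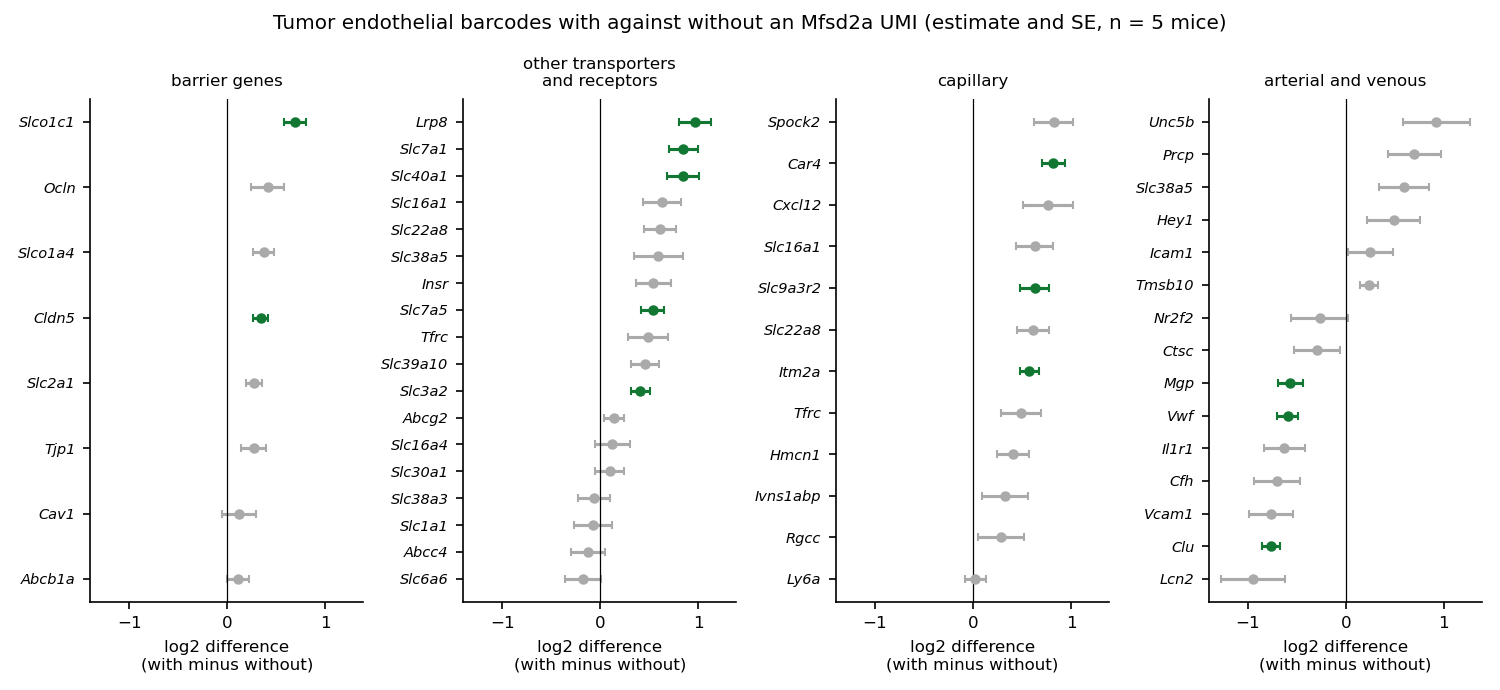
Log2 difference (estimate and SE) between tumor endothelial barcodes with and without an Mfsd2a UMI, over 5 tumors with the mouse as a block, for all tested genes among the other members, the other transporters and receptors, and the capillary, arterial and venous lists. Green points passed the adjusted p of 0.05, and Slco1c1 at 0.69 and Cldn5 at 0.34 are the members among them.

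Barcodes just outside and just inside the endothelial rule, pooled over mice, held 99.2 CPM of Mfsd2a with 3 markers and 162 CPM with 4 in tumors, and 66.3 and 90.9 CPM in controls. Cldn5 was at 1070 CPM with 3 markers and 3138 CPM with 4 in tumors, and at 676 and 1091 CPM in controls. The number of such barcodes was 136 and 205 in tumors and 20 and 37 in controls.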

How the data were processed

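The deposited files hold whole UMI counts per gene and barcode, made by the authors with Cell Ranger on mm10 (version 7 and Scanpy 1.8.2 per the labels; the matrix headers name another release) and not normalized. The members and lists were chosen with earlier results of these data known. Conditions and replicate numbers were read from the labels, and each mouse was 1 sample. In control replicate 4 the gene and barcode lists are shorter than the matrix, so that its barcodes were left out of the count of shared barcodes; its mouse genes stood in the same order as in the other libraries.

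Of the 10000 barcodes with most UMIs per library, those with 200 to 6000 genes were kept and split by a Gaussian mixture (scikit-learn 1.9.0) of mitochondrial share and gene number, of which the component with more mitochondrial RNA was removed. The barcodes with the highest Scrublet scores (Scanpy 1.11.5) were left out as doublets at 0.8% per 1000 barcodes. Cell classes were gates of 4 of 6 markers. UMI counts were summed per mouse for mice with at least 10 barcodes and compared by edgeR 4.0.16 under R 4.3.3 (quasi-likelihood F-test) after filterByExpr and TMM normalization, with Benjamini-Hochberg adjustment over all genes tested and a threshold of 0.05. CPM are UMIs per 1000000 UMIs of the summed barcodes. Fold changes are tumor over control. DESeq2 1.42.0 and limma 3.58.1 (voom) were alternatives. The test was tried on simulated counts: in endothelial barcodes it recovered 20% of genes changed by 1 on the log2 scale and 94.9% of those changed by 2, over 6470 genes. A difference of 1 was thus often missed at this depth.

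Named genes were the 10 members, up to 4 genes of each list with the smallest p in the endothelial test, the 5 genes that rose and the 5 that fell with the smallest p and an unchanged direction with each mouse left out, and the 5 most like Mfsd2a across classes. Genes named for the split by Mfsd2a and the classes named for single members were chosen after their values were seen. Gene coordinates are of GRCm38, and promoter windows of GRCm38.p6 were matched by symbol for 9 of the 10 members. No deposited cell annotation was used here. A gene of the WNT list is not reported here. Floors cover counting error only. The 95% intervals of log2 differences come from the SE of the fit over mice and the normal quantile. With so few mice they are somewhat too narrow.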

Additional observations from a re-analysis of the deposited data

Results flagged for a closer look

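Plvap in the endothelial barcodes of control replicate 2 stood at 22.4 CPM (4 UMIs), against 0 UMIs in the other 3 controls. With the others at 0, any count would stand apart in this way, and the 0 UMIs of control replicates 1, 3 and 4 allow up to 54.9, 18.1 and 21.1 CPM. It was the 1 outlier among 42 groups of values examined, of which chance alone marks about 1 in 20.

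The 3000 smallest deposited barcodes of each library entered no test between groups, and in tumors held RNA of 6 members above the level in every control. Their highest values were Mfsd2a at 63.6 CPM in tumor replicate 5, Cldn5 at 283 CPM in tumor replicate 4, and Abcb1a at 54.7, Slco1a4 at 136, Slc2a1 at 140 and Cav1 at 19.6 CPM in tumor replicate 3. The controls held at most 6.31, 14.3, 3.81, 4.77, 14.9 and 4.45 CPM of these genes.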

How the results depend on the processing

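The rises of Cldn5 and Slc2a1 in endothelial barcodes kept their direction and their side of the threshold in all 24 alternatives (log2 differences of 1.51 to 2.04 and 1.41 to 2.12), as they did in the other cells in all 17 (2.94 to 3.66 and 1.79 to 2.24). In the other cells Mfsd2a moved to 3.28 with barcodes kept by gene number alone. Counts of called genes in endothelial barcodes (832 higher, 800 lower) moved to 477 and 422 without barcodes of another class other than neuron, to 213 and 173 after thinning to 1000 UMIs, to 385 higher and 855 lower with voom, to 175 and 598 scaled to the 16 endothelial markers, and to 1339 and 827 with no filter on low counts. Without TMM they were 663 and 954. Leaving out 1 mouse gave 479 to 840 higher and 443 to 848 lower, with the lowest without control replicate 2 (479 and 443) and control replicate 4 (532 and 511). Called genes were thus 51.0% higher at first, and 31.0%, 22.6%, 41.0% and 61.8% with voom, the marker scale, no TMM and no filter. Differences that were not called changed sign as follows. Slco1a4 in endothelial barcodes was -0.065 with 5 or more markers, -0.18 with voom, -0.014 without TMM, -0.43 on the marker scale, and -0.29 to 0.34 with 1 mouse left out. Tjp1 was 0.11 after thinning and Abcb1a 0.0063 with no filter. In the other cells with 0 of 6 markers Ocln was -0.31, Abcb1a -0.081 and Slco1c1 -0.30. Slco1c1 there was -0.026 with DESeq2, -0.56 with voom, -0.11 without TMM, -0.0098 with no filter and -0.36 to 0.24 with 1 mouse left out, and Ocln -0.52 with voom. Members called lower in the other cells were 2 with DESeq2 and without TMM, where Tjp1 passed (-0.29 and -0.47), and members called higher were 2 with voom, where Slco1a4 (1.28) and Cav1 (1.93) did not. In the split by Mfsd2a, calls were 11 and 8 with 5 or more markers, 9 and 10 without barcodes of another class, 10 and 4 after thinning, and 11 to 27 higher and 15 to 37 lower with 1 tumor left out (11 and 15 without tumor replicate 2, 13 higher without tumor replicate 4, 15 lower without tumor replicate 3). Members called higher there were 1 in each of these, and Cav1 was -0.18 with 5 or more markers. The cause of these moves was not tested, except that thinning and leaving out barcodes reduce the genes tested. With at least 1 marker in place of 4, 15 of the shares of UMIs in endothelial barcodes moved by more than the spread between mice, that of Mfsd2a in tumors to 44.8%.

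Deviations of same-numbered mice of the groups had correlations of -0.0085 to 0.0796 in endothelial barcodes and -0.0268 to 0.0379 in the other cells. Those of differently numbered mice ran from -0.0847 to 0.0597 and from -0.0627 to 0.044. These ranges overlap, and 4 same-numbered pairs are too few to tell whether the numbers pair the mice. With the replicate number as a block, over replicates 1 to 4, 730 genes were higher and 738 lower in endothelial barcodes, against 741 and 736 for the same mice without it, Slco1a4 was -0.23 and, in the other cells, Slco1c1 was -0.072 and Slco1a4 did not pass (1.86, edgeR adjusted p = 0.0552). The remaining alternatives gave no value. A mitochondrial limit of 10% left 3 controls, and leaving out barcodes of every other class left 4 controls, with under 10 endothelial barcodes, and the split by Plvap could not be fitted. With that mitochondrial limit in place of the mixture, control replicates 1 to 4 held 5, 8, 8 and 11 endothelial barcodes, against 21, 36, 31 and 25 in the main set. Tumor replicates 1 to 5 held 83, 154, 195, 270 and 212, against 123, 163, 156, 148 and 122. Control endothelial barcodes limit the depth most, with 54611 UMIs in control replicate 1.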
